A study of Zea mays with 27 samples.

Results

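Leaf RNA of B,Pl maize was set directly against leaf RNA of b,pl maize, both grown under the plastic filter labelled CA, on 2 of the 27 cDNA arrays of the series. Those 2 arrays were taken because their titles put B,Pl under CA in 1 dye and b,pl under CA in the other. On B,Pl CA replicate 1 the B,Pl RNA was labelled with Cy5 and the b,pl RNA with Cy3, and on B,Pl CA replicate 2 the dyes were swapped. The other 25 arrays hold total RNA of adult leaves of B,Pl, b,pl, bz2 and mutator plants. These plants were under CA, PE or LE filters, 1 day after removal of PE, or in the greenhouse with supplementary UV-B or no UV-B. Described below are the 5 of these arrays that carry another B,Pl group against b,pl under CA. They are B,Pl PE replicates 2 and 3, both B,Pl PE removed arrays and B,Pl UV-B replicate 1, the last from the greenhouse. In total 7 of the other arrays hold B,Pl RNA, 2 of them in both channels. The labels give adult leaf as the tissue, no age beyond that and no number of plants per RNA sample, and they do not say whether the dye swaps came from separate plants. The p-values therefore measure the spread between arrays, which may be technical.

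B and Pl are the maize regulatory loci that together switch on anthocyanin synthesis in the plant body. B encodes a basic helix-loop-helix protein and Pl a MYB protein. Both act at the promoters of the structural genes, among them c2 for chalcone synthase, a1 for dihydroflavonol reductase, bz1 for a glucosyltransferase and bz2 for the glutathione S-transferase that helps anthocyanin into the vacuole. Plants labelled B,Pl are named for the dominant forms, and plants labelled b,pl for the recessive ones. The comparison asks which leaf transcripts differ with this genotype under the CA filter. None of the regulators or structural genes of the pathway was among the annotated cDNAs, so neither the genotype labels nor the pathway itself could be checked on these arrays. Array ratios give no level of a transcript, so the tissue could not be checked against leaf markers either.

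Each array carried 16200 spots, which held 5400 cDNAs as 3 consecutive spots each. A deposited value is the log2 ratio of the channels of 1 spot. In what follows a value is the mean of the spots of a cDNA, centred on the median of its array and given a plus where B,Pl was labelled Cy5 and a minus where it was labelled Cy3. If the deposited ratio is Cy5 over Cy3, a positive value means more RNA in B,Pl and a negative value more RNA in b,pl. The sources used here do not give the numerator, so values are called positive or negative. Over all 27 arrays the median residual variance was 0.168 with this sign and 0.216 with the deposited ratios read as named group over other channel. The channel intensities were not analysed here. A gene symbol was available for 811 cDNAs, which stand for 213 genes, and the other 4589 were unannotated. An unannotated cDNA is named here by the number of its first spot.

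The swapped arrays differed strongly in spread, and this touches every result that follows. B,Pl CA replicate 1 had values for 5394 cDNAs with an SD of 0.347, and B,Pl CA replicate 2 had values for 5147 cDNAs with an SD of 1.22. Only b,pl PE replicate 2 spread more among the 27 arrays, with an SD of 1.26. The median SD among the spots of a cDNA was 0.032 on B,Pl CA replicate 1 and 0.081 on B,Pl CA replicate 2. In consecutive blocks of 300 cDNAs the SD ran from 0.256 to 0.638 on B,Pl CA replicate 1 and from 0.298 to 1.52 on B,Pl CA replicate 2. Beyond 2-fold there were 80 cDNAs on B,Pl CA replicate 1 (1.48%), 33 positive (0.612%) and 47 negative (0.871%). On B,Pl CA replicate 2 there were 1392 (27%), 566 positive (11%) and 826 negative (16%). Across the 5141 cDNAs measured on both arrays the signed values had a Pearson r of -0.06 and a Spearman rho of -0.04, a description over cDNAs that share the same 2 hybridisations. The sign was the same on both arrays for 2570 cDNAs (50%) and opposite for 2570, and 1 cDNA had a value of 0 on an array.

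**Figure D1:**
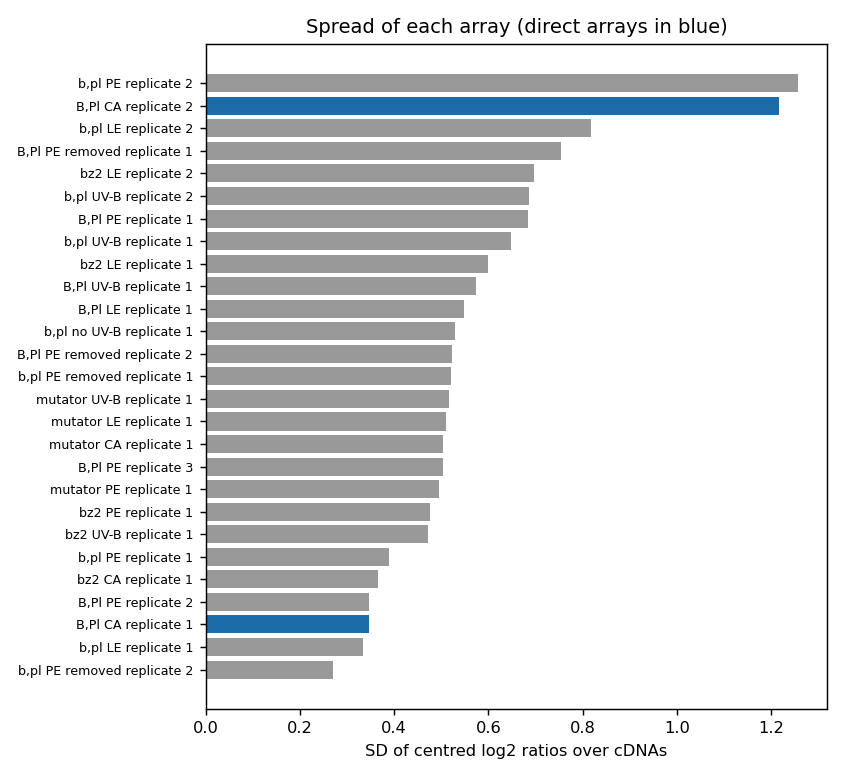
Bars give the SD of centred log2 ratios over the cDNAs of each of the 27 arrays, with B,Pl CA replicates 1 and 2 in blue and the other arrays in grey. B,Pl CA replicate 1 stands near the bottom at 0.347, and B,Pl CA replicate 2 second from the top at 1.22.

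No transcript passed the test of B,Pl minus b,pl under CA. In 1 linear model over all 27 arrays, with 18 groups relative to b,pl under CA, a dye term and the variance shrinkage of limma, 0 of 5400 cDNAs (0%) reached a Benjamini-Hochberg adjusted p of 0.05, and the smallest adjusted p was 0.463. At an unadjusted p under 0.05 there were 569 cDNAs (10.5%), of which 352 (6.52%) were positive and 217 (4.02%) negative. Without centring, which moved the median of all cDNAs to 0.287 from -0.01, 998 cDNAs had such a p and 959 of them were positive. Read as named group over other channel, 457 had such a p and 184 of them were positive. With the 2 direct arrays alone 29 did. Among the annotated cDNAs 93 of 811 (11.5%) had an unadjusted p under 0.05, close to the share over all cDNAs. On simulated arrays with the fitted spread the model recovered 55 of 100 cDNAs changed by 1 and 90 of 100 changed by 2 on the log2 scale among 5400. The simulation gave each cDNA the same normal spread on every array, whereas the real direct arrays differed strongly in spread. It therefore does not show what share of such changes these arrays would have recovered. Since no cDNA passed, the values below are descriptions of these arrays.

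Beyond 2-fold with the same sign on both arrays there were 13 of 5141 cDNAs (0.253%), 1 of them positive (0.0195%) and 12 negative (0.233%). Beyond 2-fold with opposite signs there were 38 (0.739%) when signed by dye. With the deposited ratios read as B,Pl over b,pl on both arrays, these counts change places, and 38 have the same sign (18 positive and 20 negative) and 13 opposite signs. The numerator is not known, so which set goes with the genotype is not settled. Only 1 of the 13 was annotated, a cDNA of tua4 for an alpha tubulin, 1 of the building blocks of microtubules. It was also 1 of 8 among the 13 that lacked a value at 1 or more of their 6 spots.

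**Figure D2:**
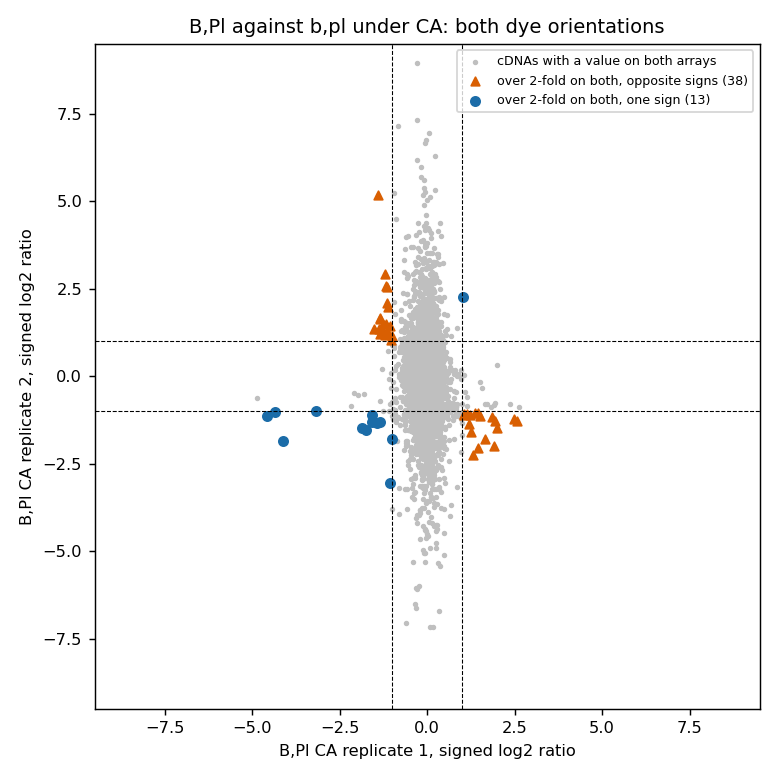
Each point is a cDNA, with its signed log2 ratio on B,Pl CA replicate 1 across and on B,Pl CA replicate 2 up, and dashed lines at 2-fold. The 13 cDNAs with the same sign on both arrays are blue circles and the 38 with opposite signs orange triangles, and the grey cloud is far taller than wide.

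The strongest member by the smaller of its values was cDNA 14164, with -4.11 on B,Pl CA replicate 1 from 2 spots and -1.84 on B,Pl CA replicate 2 from 1 spot. Its all-array estimate was -2.77 with an SE of 1.32. The spots behind the first value stood at -5.12 and -3.11, so the copies of this cDNA on a single array were about as far apart as the arrays were. cDNA 14170 showed the same with 3 spots at -0.34, -0.74 and -4.50 on B,Pl CA replicate 1. Its mean of -1.86 there was set by 1 spot.

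Values from a single spot also put cDNA 14086 in the set, with -4.57 on B,Pl CA replicate 1 and -1.14 on B,Pl CA replicate 2. cDNA 4042 had -3.18 from a single spot on B,Pl CA replicate 1 and -1.003 from 3 spots on B,Pl CA replicate 2. The tua4 cDNA 13981 had -4.35 from a single spot on B,Pl CA replicate 1 and -1.03 from 3 spots on B,Pl CA replicate 2. All 3 thus rest on 1 spot of the array with the smaller spread. The tua4 cDNA had an all-array estimate of -1.96 (SE 0.84), and from the 25 other arrays one of 0.53 (SE 1.34), which is of the opposite sign.

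Among the 5 members with all 3 spots on both arrays, cDNA 12145 had -1.57 on B,Pl CA replicate 1 and -1.31 on B,Pl CA replicate 2. Its spots stood at -2.35, -1.18 and -1.18 on B,Pl CA replicate 1 and at -1.13, -2.01 and -0.79 on B,Pl CA replicate 2, and all 6 were negative. The all-array estimate was -1.56 with an SE of 0.46 and an unadjusted p of 0.0065, and the 25 other arrays gave -1.88 with an SE of 0.96. This was the smallest unadjusted p among the 13. Its adjusted p in the limma fit was 0.463.

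The other members with all spots were cDNAs 8092, 4045, 10186 and 1996. cDNA 8092 had -1.35 on B,Pl CA replicate 1 and -1.30 on B,Pl CA replicate 2, with single spots from -1.98 to -0.35. cDNA 4045 had -1.57 on B,Pl CA replicate 1 and -1.11 on B,Pl CA replicate 2, where its spots lay between -1.13 and -1.08. For these cDNAs the arrays lay closer together than the spots of B,Pl CA replicate 1 did. cDNA 10186 had -1.05 on B,Pl CA replicate 1 and -3.04 on B,Pl CA replicate 2, the second of which included a spot at -6.17. cDNA 1996 had -1.78 on B,Pl CA replicate 2 and lay just beyond -1 on B,Pl CA replicate 1, the closest of the members to the threshold.

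The only positive member was cDNA 7957, with 1.02 on B,Pl CA replicate 1 and 2.26 on B,Pl CA replicate 2. The first value came from 3 spots between 0.96 and 1.08, and the second from 1 spot. The all-array estimate was 1.48 (SE 0.46, unadjusted p = 0.009, adjusted p = 0.463 in limma), and the 25 other arrays gave 1.07 (SE 0.90). The remaining members were cDNA 8149, with -1.74 and -1.54, and cDNA 8095, with -1.44 and -1.34, on B,Pl CA replicates 1 and 2. Both values of cDNA 8149 came from 2 spots. For cDNA 8095 the first value came from 1 spot, and the spots behind the second stood at -0.51, -1.27 and -2.24. Of the 13, 3 had an unadjusted p under 0.05 in limma, against 10.5% over all cDNAs, and all 13 had an adjusted p of 0.463 or more. The all-array fit includes both direct arrays, on which the 13 were chosen. Their all-array estimates and p-values are therefore not independent of that choice. The same holds for the annotated cDNAs chosen below by their values on these arrays.

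As a set the 13 cDNAs had 2 features, neither of which every member showed. The first was disagreement among their own spots. The median spot SD was 0.68 on B,Pl CA replicate 1 and 0.63 on B,Pl CA replicate 2, against 0.032 and 0.081 over all cDNAs. The rule uses the mean of the spots, so 1 outlying spot can place a cDNA in the set. cDNA 7957, by contrast, had a spot SD of 0.0565 on B,Pl CA replicate 1. The second was their place in the spot order, since 6 of 13 stood next to another member or 1 cDNA away from one, with 8092 beside 8095, 4042 beside 4045, and 14164 close to 14170. The part of spot quality or position in these values was not tested. When only the 3465 cDNAs with all 3 spots and a spot SD of at most 0.2 on both arrays were kept, a limit chosen after seeing the data, 0 cDNAs were beyond 2-fold with the same sign and 14 were beyond 2-fold with opposite signs.

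The cDNAs just outside the threshold differed in how closely their spots agreed. cDNA 8779 had spots at -1.003, -1.001 and -0.994 on B,Pl CA replicate 1 and at -1.17, -1.12 and -1.08 on B,Pl CA replicate 2. A CaM1 cDNA for calmodulin, the calcium sensor of the cytoplasm, had spots at -0.996, -0.98 and -1.02 on B,Pl CA replicate 1 and at -3.35, -3.35 and -4.69 on B,Pl CA replicate 2. Both therefore missed 2-fold on B,Pl CA replicate 1 by less than their spot spread. The CaM1 cDNA had an all-array estimate of -1.95 (SE 0.66, unadjusted p = 0.014, adjusted p = 0.463 in limma). The 3 next were cDNAs 8164, 10078 and 1801, whose smaller values were -0.999, -0.99 and -0.982.

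**Figure D3:**
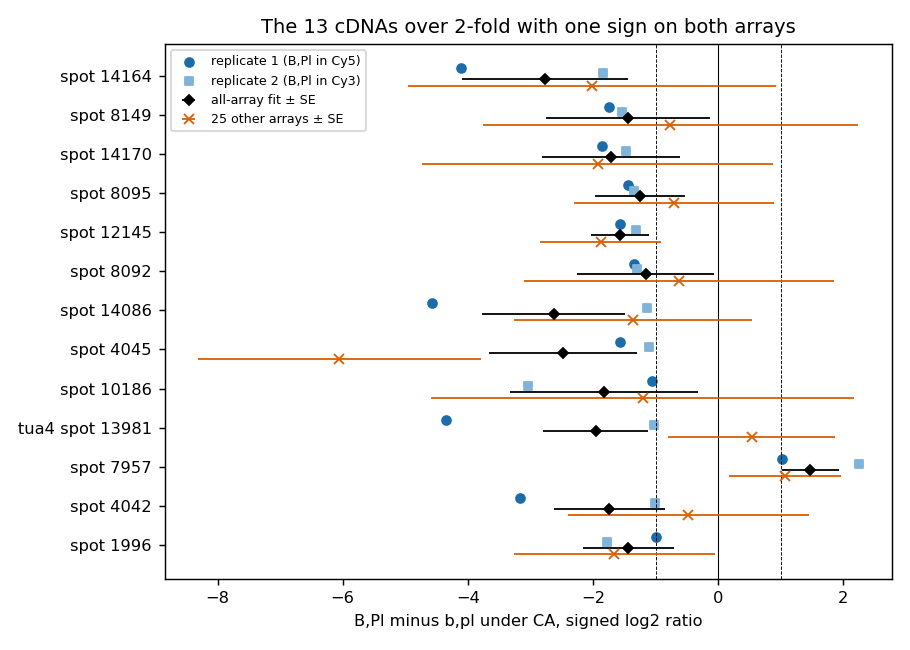
For each of the 13 cDNAs, circles and squares give the signed log2 ratio on B,Pl CA replicates 1 and 2, diamonds the all-array estimate with its SE, and crosses the estimate from the 25 other arrays with its SE. Of the crosses 11 lie below 0, with SE bars that mostly reach across 0.

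B,Pl under CA is also tied to b,pl under CA through the array that sets B,Pl PE against B,Pl CA, so the fit without both direct arrays gives the same difference from arrays that the 2-fold rule did not use. That estimate was negative for 11 of the 12 negative members and positive for the only positive one. The exception was the tua4 cDNA. The estimates by this route ranged from -6.06 for cDNA 4045 (SE 2.26) to 1.07 for cDNA 7957, with a median of -1.21 over the 13. The SE exceeded the estimate for most of them, and over all 5400 cDNAs 2684 were negative by this route.

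The members did not keep their sign through the other B,Pl arrays that carry b,pl under CA. Those arrays differ in filter, or in greenhouse and UV-B, as well as in genotype, and they share the b,pl CA group. On B,Pl PE removed replicate 1 10 of the 10 negative members measured were negative, and on B,Pl PE removed replicate 2 8 of 12. On B,Pl PE replicate 2 3 of 12 were negative, and on B,Pl UV-B replicate 1 4 of 11. On B,Pl PE replicate 3 8 of 11 were. Over all cDNAs the negative counts were 2681 of 5362 and 2677 of 5355 on B,Pl PE removed replicates 1 and 2. They were 2697 of 5395 on B,Pl PE replicate 2 and 2687 of 5375 on B,Pl PE replicate 3. On B,Pl UV-B replicate 1 the count was 2690 of 5380. cDNA 12145 had -2.27 and -1.31 on B,Pl PE removed replicates 1 and 2, -1.47 on B,Pl UV-B replicate 1, 0.30 on B,Pl PE replicate 2 and 0.88 on B,Pl PE replicate 3. It was thus far below 0 on both PE removed arrays and on the UV-B array, but not on those under PE. B,Pl PE replicates 2 and 3 had swapped dyes, and their signed values had a Pearson r of -0.39 over 5370 cDNAs, so the direction of B,Pl PE, through which the indirect route runs, is not settled. On B,Pl PE replicate 2 the title and the source name conflict on the dye, and the title was followed.

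The 38 cDNAs beyond 2-fold with opposite signs were of separate kinds. Of these, 20 were negative on B,Pl CA replicate 1 and positive on B,Pl CA replicate 2, which means that the Cy5 channel was low both times if the ratio is Cy5 over Cy3. All 20 had every spot, with a median spot SD of 0.034 on B,Pl CA replicate 1 and 0.118 on B,Pl CA replicate 2, close to those over all cDNAs. Their values ran from -1.51 to -1.01 on B,Pl CA replicate 1 and from 1.03 to 5.18 on B,Pl CA replicate 2. The dye term of the 25 other arrays, which the rule did not use, had a median of -0.10 over these 20. It was negative for 15 of them, against 2668 of all 5400 cDNAs. The estimate from those arrays was negative for all 20, between -1.09 and -0.19, against 2684 of 5400. Signed by dye, all 20 were negative on B,Pl PE removed replicate 1 and 19 on B,Pl PE removed replicate 2. On B,Pl PE replicate 2 18 of 20 were, on B,Pl UV-B replicate 1 14 and on B,Pl PE replicate 3 0. The part of the dye in these values was not tested.

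GOS2, a homologue of the translation initiation factor eIF1, was the only annotated cDNA among the 38. Its spots stood at -1.26, -1.19 and -1.22 on B,Pl CA replicate 1 and at 1.07, 1.17 and 1.32 on B,Pl CA replicate 2. The signed values were thus almost mirror images, and the all-array estimate was -0.20 (SE 0.39). cDNA 9517 reached 5.18 on B,Pl CA replicate 2 with spots at 3.34, 8.30 and 3.89, against a mean of -1.40 on B,Pl CA replicate 1. The other 18 were positive on B,Pl CA replicate 1 and negative on B,Pl CA replicate 2, 11 of them with all spots, and their median spot SD on B,Pl CA replicate 1 was 0.866.

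Since the 2-fold rule left 1 annotated cDNA, the annotated cDNAs are described next by the smaller of their values on both arrays. Of the 792 annotated cDNAs measured on both arrays, 257 were positive on both (32.4%), 142 were negative on both (17.9%) and 393 were opposite (49.6%), so 399 had the same sign (50.4%). Over all cDNAs these shares were 25.1%, 24.9% and 50%. After the tua4 and CaM1 cDNAs already given, the largest were a negative cDNA of tif5A for translation initiation factor 5A and a positive cDNA of elfa3 for elongation factor 1-alpha, which brings aminoacyl-tRNA to the ribosome. The tif5A cDNA had spots at -0.76, -0.76 and -0.78 on B,Pl CA replicate 1 and at -0.69, -0.49 and -0.61 on B,Pl CA replicate 2. The elfa3 cDNA had spots at 0.63, 0.53 and 0.54 on B,Pl CA replicate 1 and at 0.55, 0.59 and 0.48 on B,Pl CA replicate 2. For both cDNAs the arrays nearly met, with all-array estimates of -0.55 (SE 0.22) and 0.51 (SE 0.19). The 25 other arrays gave -0.11 (SE 0.46) and 0.39 (SE 0.40). The arrays did not meet for the other tif5A cDNA, with -0.75 on B,Pl CA replicate 1 and -0.02 on B,Pl CA replicate 2.

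Among chromatin proteins, 1 cDNA was of sdg110, a SET domain protein of the kind that methylates histones. It had 0.48 on B,Pl CA replicate 1 and, from 2 spots, 2.26 on B,Pl CA replicate 2. Its all-array estimate was 1.28 (SE 0.33, unadjusted p = 0.0028, adjusted p = 0.463 in limma), and the 25 other arrays gave 1.11. A cDNA of nfd101, listed with the chromatin genes, had 0.49 on B,Pl CA replicate 1 and 0.58 on B,Pl CA replicate 2. Its all-array estimate was -0.13 with an SE of 0.71, and the 25 other arrays gave -2.22 (SE 1.39). The close direct values of nfd101 were therefore not shared by the indirect route.

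A tua4 cDNA other than the one above was positive, with 0.52 on B,Pl CA replicate 1 and 0.98 on B,Pl CA replicate 2, and an all-array estimate of 0.94 (SE 0.29, unadjusted p = 0.0092). A cDNA of MADS67, a MADS-box transcription factor, had 0.44 on B,Pl CA replicate 1 and 0.74 on B,Pl CA replicate 2. The GPC1 cDNA named by this rule had -0.46 on B,Pl CA replicate 1 and -0.73 on B,Pl CA replicate 2, with no more than 0.03 between the spots of either array. The paa cDNA had -0.49 on B,Pl CA replicate 1 and -0.70 on B,Pl CA replicate 2, but its spots on the second array stood at 0.13, 0.62 and -2.84. That mean was set by 1 spot.

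Genes with several cDNAs allow a look at whether separate clones of 1 gene went the same way, although such clones share the RNA and can cross-hybridise within a family. Of 70 genes with 3 or more cDNAs, the median over cDNAs was positive on both arrays for 22, negative on both for 14 and of opposite sign for 34. The chaperone genes of the HSP70 family, which bind unfolded proteins, had cDNAs mostly positive on both arrays. For hsp70-4 16 of 21 cDNAs were positive on both arrays and 0 negative on both, with medians of 0.28 on B,Pl CA replicate 1 and 0.30 on B,Pl CA replicate 2. For hsp70-5 17 of 22 were positive on both and 0 negative on both, with medians of 0.29 and 0.13 on B,Pl CA replicates 1 and 2. An unadjusted p under 0.05 was found for 6 hsp70-4 and 5 hsp70-5 cDNAs, all positive, and the indirect medians were 0.41 and 0.38. On B,Pl PE replicates 2 and 3, which that route uses, the hsp70-4 medians were -0.41 and 0.30. Those of hsp70-5 were -0.33 and 0.18. With the ratios read as named group over other channel, 16 of the 21 hsp70-4 and 17 of the 22 hsp70-5 cDNAs were of opposite sign, and the median of the fit was -0.004 in place of 0.32 for hsp70-4 and 0.11 in place of 0.34 for hsp70-5.

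Negative on both arrays in most of its cDNAs was GPC1, the cytosolic glyceraldehyde-3-phosphate dehydrogenase of glycolysis. All 10 of its cDNAs were negative on B,Pl CA replicate 1 and 9 of 10 on B,Pl CA replicate 2, with a median of -0.37 on each. In the fit 5 had an unadjusted p under 0.05, all negative, and the median was -0.44. By the indirect route the median was -0.54 with 9 of 10 negative. On B,Pl PE replicates 2 and 3, which that route uses, the GPC1 medians were 0.03 and -0.65. Read as named group over other channel, 9 of 10 were of opposite sign and the median of the fit was -0.04. Its paralog gpc2 had medians of -0.23 on B,Pl CA replicate 1 and -0.08 on B,Pl CA replicate 2, with 5 of 7 cDNAs negative on both. These values correspond to differences well under 2-fold, and none passed the adjustment over all cDNAs.

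**Figure D4:**
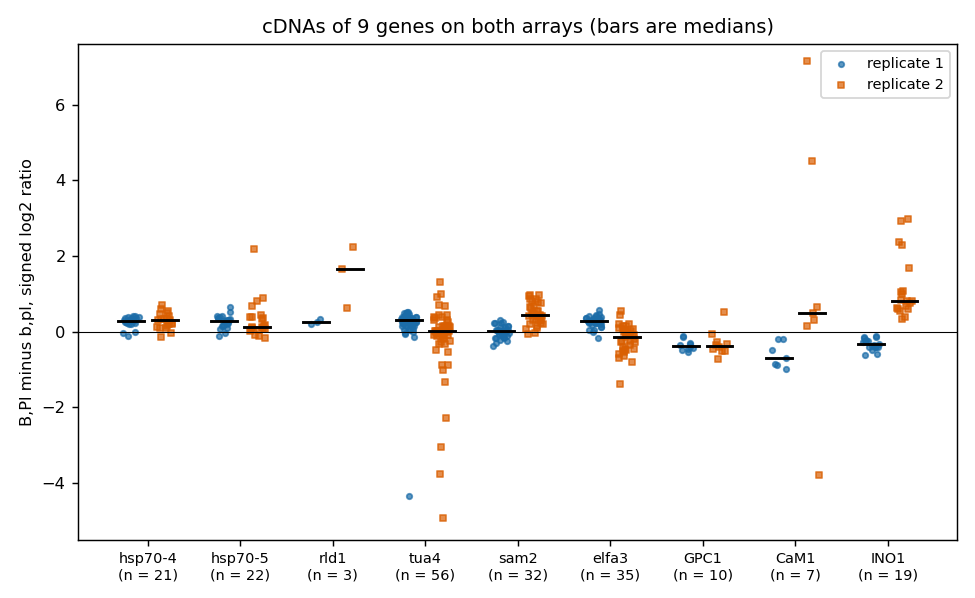
Points are the cDNAs of 9 genes measured on both arrays, blue for B,Pl CA replicate 1 and orange for B,Pl CA replicate 2, and black bars are medians of the signed log2 ratio. Both bars are near 0.3 for hsp70-4 and near -0.37 for GPC1, and they lie on opposite sides of 0 for elfa3, CaM1 and INO1.

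The other genes with the largest medians of 1 sign rested on few cDNAs. On the positive side rld1, a homeodomain leucine zipper regulator of leaf polarity, had medians of 0.26 on B,Pl CA replicate 1 and 1.65 on B,Pl CA replicate 2 over 3 cDNAs. HDT1, a plant-specific histone deacetylase, had 0.36 and 0.19 on B,Pl CA replicates 1 and 2. The enolase gene eno1 had 0.18 and 0.45, and m4 had 0.23 and 0.39. On the negative side PDHE1-B, for a subunit of pyruvate dehydrogenase, had -0.29 on B,Pl CA replicate 1 and -1.24 on B,Pl CA replicate 2. Its 3 cDNAs were all positive by the indirect route, with a median of 0.55. The sucrose synthase gene sh1 had -0.14 and -0.91 and an indirect median of 0.15, paa had -0.27 and -0.70, and cys2 had -0.29 and -0.15.

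INO1, for myo-inositol-1-phosphate synthase, had opposite signs on the arrays in every clone when signed by dye. All 19 of its cDNAs were negative on B,Pl CA replicate 1, with a median of -0.31, and all 19 were positive on B,Pl CA replicate 2, with a median of 0.82. Read as named group over other channel, all 19 were negative on both arrays, with -0.82 on B,Pl CA replicate 2 and a median of -0.49 in the fit, against 0.16 when signed by dye. CaM1 had opposite signs in 6 of the 7 cDNAs measured on both arrays, with medians of -0.70 on B,Pl CA replicate 1 and 0.48 on B,Pl CA replicate 2. The CaM1 cDNA just outside the 2-fold threshold was the remaining one. Enolase eno2 was opposite in 4 of 4 cDNAs, with -0.19 on B,Pl CA replicate 1 and 0.71 on B,Pl CA replicate 2. For elfa3 22 of 35 cDNAs were opposite, and the median was 0.29 on B,Pl CA replicate 1 and -0.15 on B,Pl CA replicate 2.

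By function, the genes with annotated cDNAs were described in lists, 25 of which had members, and in every list 0 cDNAs passed the adjusted p. The HSP70 and heat shock list held 57 cDNAs of 9 genes, of which 37 were positive on both arrays and 4 negative on both. Most of the 37 were cDNAs of the genes already described, 16 of hsp70-4 and 17 of hsp70-5. HSP18 cDNAs 13996 and 4639 were negative on both, with -0.27 and -0.16 on B,Pl CA replicate 1. On B,Pl CA replicate 2 they had -2.19, from 2 spots, and -1.36. Its medians were 0.23 on B,Pl CA replicate 1, 0.18 on B,Pl CA replicate 2 and 0.28 in the fit, against 0.047, 0.093 and 0.079 over all annotated cDNAs. At an unadjusted p under 0.05 the list had 12 cDNAs, of which 11 were positive, 6 of hsp70-4 and 5 of hsp70-5. The negative one was HSP18 cDNA 13996. The cDNA of this list with the smallest p, of hsp70-5, had 0.27 on B,Pl CA replicate 1, 0.66 on B,Pl CA replicate 2 and an all-array estimate of 0.54 (SE 0.17, unadjusted p = 0.0084).

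Tubulins were the largest list, with 117 cDNAs of 7 genes. Of the 114 measured on both arrays 48 were positive on both, 8 negative on both and 58 opposite. The medians were 0.23 on B,Pl CA replicate 1 and 0.02 on B,Pl CA replicate 2, and 0.29 in the fit. By the indirect route the median was 0.73, and 99 of 117 were positive. The fit for tubulins thus drew on arrays other than the direct swaps. On B,Pl PE replicates 2 and 3, which the indirect route uses, the tua4 medians were -0.19 and 0.26. The tua4 cDNA 8695 had the smallest unadjusted p of all cDNAs, 0.0013, with 0.32 on B,Pl CA replicate 1, 1.30 on B,Pl CA replicate 2 and an estimate of 0.78 (SE 0.18). A cDNA of TUA1 had 0.29 and 1.16 on B,Pl CA replicates 1 and 2, and 1 of tua5 had 0.23 and 1.17.

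In carbon metabolism, glycolysis had 29 cDNAs of 6 genes, 14 negative on both arrays and 4 positive on both. The 6 with an unadjusted p under 0.05 were all negative, and were cDNAs of GPC1 and gpc2. The sucrose and starch list was mixed, with 4 positive and 6 negative on both among 19. There an sh1 cDNA had 0.05 on B,Pl CA replicate 1 and, from 2 spots, 2.27 on B,Pl CA replicate 2. A sus1 cDNA, for another sucrose synthase, had -0.12 and -1.81 on B,Pl CA replicates 1 and 2. The dehydrogenase list held a pdh1 cDNA with 0.34 on both arrays, and an adh1 cDNA, for alcohol dehydrogenase, with -0.19 and, from 2 spots, -0.74. The photosynthesis list had 9 cDNAs and 0 with an unadjusted p under 0.05.

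Chromatin genes showed no common sign. Of the 46 cDNAs for histone-modifying and silencing proteins 15 were positive on both arrays and 9 negative on both. Besides sdg110, 2 cDNAs of mbd101, for a methyl-CpG-binding domain protein, had -0.16 and -0.16 on B,Pl CA replicate 1 and -2.06 and -1.92 on B,Pl CA replicate 2. A cDNA of mbd105, of the same family, had 0.19 on B,Pl CA replicate 1 and 1.84 on B,Pl CA replicate 2. Of the 67 cDNAs of linker and core histones 65 were measured on both arrays, with 15 positive on both and 19 negative on both. A cDNA of hon101, a linker histone, had 0.24 on B,Pl CA replicate 1 and, from 2 spots, 2.84 on B,Pl CA replicate 2. Its all-array estimate was 1.49 (SE 0.42, unadjusted p = 0.005 in limma). In these cases the large value came from the array with the wide spread.

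Translation genes were mostly opposite between the arrays. Elongation factor 1-alpha had 40 of 58 cDNAs opposite, with medians of 0.26 on B,Pl CA replicate 1 and -0.19 on B,Pl CA replicate 2 and 0.002 in the fit. The other translation and ribosome list had 16 of 26 opposite. Of the 60 cDNAs of the S-adenosylmethionine and methyl transfer list 58 were measured on both arrays. Over these the list had medians of -0.04 on B,Pl CA replicate 1 and 0.33 on B,Pl CA replicate 2. Within it sam2 was positive on both arrays in 16 of 32 cDNAs, with medians of 0.01 and 0.44 on B,Pl CA replicates 1 and 2.

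**Figure D5:**
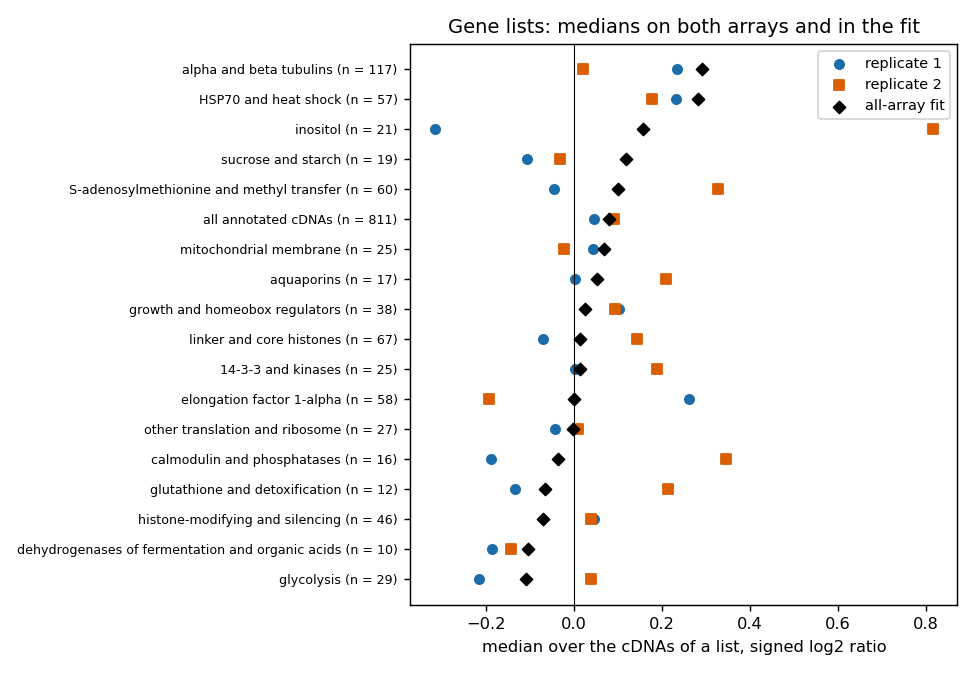
For each gene list with 10 or more cDNAs, circles give the median signed log2 ratio on B,Pl CA replicate 1, squares that on B,Pl CA replicate 2 and diamonds the median all-array estimate. HSP70 and heat shock lies above 0 by all 3 measures, and the inositol list runs from -0.31 to 0.82.

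Regulators and signalling genes gave single cDNAs of either sign. In the growth and homeobox list 13 of 36 cDNAs were positive on both arrays and 5 negative on both, and 7 had an unadjusted p under 0.05. A cDNA of kn1, the homeobox gene of the shoot meristem, had 0.21 on B,Pl CA replicate 1 and 1.03 on B,Pl CA replicate 2. A cDNA of ocl5, another homeobox gene, had -0.41 and -0.44. Among kinases, wee1 had 0.23 on B,Pl CA replicate 1 and, from 2 spots, -2.43 on B,Pl CA replicate 2. A cDNA of PP1, for protein phosphatase 1, had 0.23 and 1.05.

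Transport and membrane genes included the aquaporins, which let water cross membranes. A PIP1-3 cDNA had 0.25 on B,Pl CA replicate 1 and 2.84 on B,Pl CA replicate 2. An NIP3-1 cDNA had 0.04 on B,Pl CA replicate 1 and, from 1 spot, -2.91 on B,Pl CA replicate 2. A cDNA of stomatin1, for a membrane protein of the stomatin family, had the second smallest p of all cDNAs. It had -0.35 on B,Pl CA replicate 1, -0.83 on B,Pl CA replicate 2 and an all-array estimate of -0.57 (SE 0.13, unadjusted p = 0.0014, adjusted p = 0.463 in limma). The 25 other arrays gave -0.52, but they are part of the fit whose p was used to choose this cDNA.

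Closest in function to the anthocyanin pathway were phenylpropanoid and glutathione genes, which were few. A cDNA of CAD2, for the cinnamyl alcohol dehydrogenase of lignin synthesis, had 0.26 on B,Pl CA replicate 1 and 0.45 on B,Pl CA replicate 2, with an estimate of 0.43 (SE 0.16, unadjusted p = 0.022, adjusted p = 0.463 in limma). Glutathione S-transferases conjugate glutathione to small molecules and belong to the same superfamily as the Bz2 product. A gst11 cDNA had 0.18 on B,Pl CA replicate 1 and 0.59 on B,Pl CA replicate 2, and a gst10 cDNA had -0.13 and -0.44. Of the 11 cDNAs of that list measured on both arrays 3 were positive on both and 3 negative on both. In the lipid and jasmonate list a lox1 cDNA, for a lipoxygenase, had 0.04 and 1.13 on B,Pl CA replicates 1 and 2. The antioxidant list, with sod3 for a superoxide dismutase, had 0 of 6 with an unadjusted p under 0.05.

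Over all lists 95 cDNAs were looked at by the smallest p within each list. Of the 93 measured on both arrays, 38 were positive on both, 29 negative on both and 26 opposite, and 43 had an unadjusted p under 0.05. They were chosen on that p, so the counts say nothing beyond these cDNAs.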

How the data were processed

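The authors deposited log2 ratios of the channels, 1 value per spot and array. The scanner, the background correction, the normalisation and the numerator were not given in the sources used here. The 3 consecutive spots of a cDNA were averaged. The median of each array was subtracted, and the sign was set by the dye of the named group. The median SD within such triplets was 0.038, against 0.183 for triplets shifted by 1 spot. All 27 arrays entered 1 least-squares model with 19 terms in limma 3.58.1 (R 4.3.3), with 8 residual degrees of freedom and 2.42 from the prior. P-values are two-sided and adjusted by Benjamini-Hochberg over 5400 cDNAs. A group with 1 array is assumed to vary like the others, and the number of arrays limits the precision. The code was tested on simulated data, where 13 of 158 calls were unchanged cDNAs. Gene symbols came from an old platform annotation, and 208 of 213 genes were found in the gene table of Zm-B73-REFERENCE-NAM-5.0, taken for names alone. No sequence was used. The named cDNAs are those beyond 2-fold with the same sign, the 10 annotated ones with the largest smaller value, 5 genes of each sign by medians over 3 or more cDNAs, flavonoid genes wherever measured (0 were), and up to 4 cDNAs per list by p. GOS2, cDNA 9517, hsp70-5, gpc2, sam2, the genes with opposite signs and the cDNAs with the smallest p of all were chosen after their values were seen. The comparison and the lists were chosen with earlier results of these data known. On 4 arrays, 0 of them direct, title and source name conflict on the dye. Python 3.11.15 with pandas 2.3.3 made the tables.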

Additional observations from a re-analysis of the deposited data

How the results depend on the processing

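The all-array fit passed 0 cDNAs under each of 37 alternatives, with a smallest adjusted p from 0.115 to 0.926. Some alternatives, such as leaving out bz2 PE replicate 1, the only array of its group, returned the main result of 569 unchanged. Such alternatives could not move the fit or the medians below. Counts at an unadjusted p under 0.05 ran from 29 with the 2 direct arrays alone to 998 without centring, against 569. Leaving out 1 array at a time gave 383 with B,Pl CA replicate 2 left out to 859 with B,Pl CA replicate 1 left out. The 13 cDNAs beyond 2-fold (1 positive and 12 negative) became 5 without centring (2 positive and 3 negative), 5 with arrays scaled to the same median absolute deviation (1 positive and 4 negative), 5 with all 3 spots required (all negative), 65 at 1.5-fold, 1 at 3-fold, 38 with the sign read without regard to the dye (18 positive and 20 negative), and 0 with the spot SD limit. With B,Pl CA replicate 2 left out the count was 80, and with B,Pl CA replicate 1 left out it was 1392. Of 22 named cDNAs 10 changed sign in the fit under some alternative, and the cause was not tested. Read as named group over other channel, estimates became 0.026 for 8092, 0.59 for 10186, 0.37 for 1996, 0.82 for CaM1, 0.021 for paa, 0.091 for GPC1, -0.40 for sdg110 and -0.16 for MADS67. By the indirect route tua4 13981 became 0.53. The nfd101 cDNA became 0.17 without centring, 0.047 after scaling, 0.54 with the direct arrays alone, and 0.54 and 0.054 with B,Pl PE replicate 1 or 3 left out, where leaving out 1 array gave -0.597 to 0.54. List medians changed sign for 12 of 17 lists and gene medians for 9 of 14 genes. The lists that kept theirs were HSP70 and heat shock (0.024 to 0.58) and tubulins (0.11 to 0.73). So did growth and homeobox (0.014 to 0.32), mitochondrial membrane (0.0099 to 0.365), and sucrose and starch (0.016 to 0.42). The genes that kept theirs were GPC1 (-0.54 to -0.038), hsp70-5, tua4, HDT1 and m4, while hsp70-4 ran from -0.004 to 0.62. Several of these ranges came close to 0. No paired analysis was possible because the replicate numbers follow accession order and pair no samples.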

Other observations

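Unannotated cDNAs filled the rest of the 10 smallest unadjusted p-values, and their values were all smaller in size on B,Pl CA replicate 1 than on B,Pl CA replicate 2. Not all had spots that agreed. On B,Pl CA replicate 2 cDNA 13702 had spots at -0.55, 0.90 and 2.535, and cDNA 9748 at 2.69, 1.09 and 0.88. cDNA 4597 had 1 spot on that array, and cDNA 6226 had 2 spots on B,Pl CA replicate 1. The 3 described next had closer spots. cDNA 9295 had spots at 0.41, 0.42 and 0.45 on B,Pl CA replicate 1 and at 1.07, 1.23 and 1.04 on B,Pl CA replicate 2, with an all-array estimate of 0.73 (SE 0.18). cDNA 7546 had spots at -0.36, -0.29 and -0.31 on B,Pl CA replicate 1 and at -1.52, -1.89 and -1.74 on B,Pl CA replicate 2, with an estimate of -1.03 (SE 0.25). cDNA 4327 had spots at 0.16, 0.25 and 0.24 on B,Pl CA replicate 1 and at 1.25, 1.22 and 1.31 on B,Pl CA replicate 2, with an estimate of 0.78 (SE 0.20). The spots of these 3 cDNAs lay close together within each array, and the 25 other arrays gave 0.67, -1.15 and 0.98. These cDNAs were chosen by the p of the all-array fit, which includes those 25 arrays. Their estimates from the 25 arrays are therefore not independent of that choice. Each had an adjusted p of 0.463 in limma, so none passed.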
